A study of Mus musculus with 13 samples.

Results

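The change described here is that of Tet2-null mouse embryonic fibroblasts (MEFs) after 5 days of reprogramming with wild-type Tet2 supplied by retrovirus, read against untreated MEFs of the same line. It rests on 6 of the 13 libraries of the study, the 3 labelled Tet2-WT (replicates 1, 2 and 250) and the 3 labelled untreated (replicates 1, 2 and 100), chosen by their column names. All cells were primary MEFs of genotype Tet2-/-; OKSM-rtTA, taken at e12.5 from strain V6.5 129XBI/6 and kept at 5% oxygen, and they carry the reprogramming factors Pou5f1, Klf4, Sox2 and Myc (OKSM) under doxycycline control. The Tet2-WT cells went through repeated infection with a pMXs retrovirus carrying wild-type Tet2 and were seeded on feeder MEFs arrested with Mito-C. Their medium held LIF, 1 µM PD0325901 (a MEK inhibitor), 3 µM CHIR99021 (an inhibitor of GSK3, which activates beta-catenin) and 2 µg/mL doxycycline for 5 days. A further group, pMXs (replicates 2, 100 and 250), had the empty vector and the same feeders, medium and days, and serves as the comparison for whether a day 5 state differs with Tet2. The untreated cells are labelled as a MEF control, and the labels leave unclear whether they were infected with the empty vector.

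A day 5 library was read as the whole culture, since no sort and no removal of feeders is named, and feeders are part of the day 5 groups only. Induced OKSM, feeders, inhibitors and LIF, retroviral infection and Tet2 all differ together between Tet2-WT and untreated cells and cannot be told apart in that comparison. Between Tet2-WT and pMXs the labelled treatments differ in the vector alone, but the replicate numbers differ too. Day 5 libraries correlated by set of replicate numbers, and the sets are unequally divided between these groups. The set is therefore partly confounded with the vector in this comparison. In such bulk samples fewer cells of a type and less RNA per cell cannot be told apart. Nothing in the labels says that the replicates came from different cultures. The p-values therefore speak only of the spread between these libraries, which may be technical.

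Tet2 is a dioxygenase that oxidises 5-methylcytosine in DNA, a first step in the removal of methylation at promoters and enhancers. OKSM reprogramming of fibroblasts begins with the loss of the mesenchymal programme (collagens, matrix and the transcription factors of the limb and body wall), the gain of epithelial junctions and faster division, and activation of the endogenous pluripotency network comes later. Tet enzymes are known for their part in the activation of methylated genes during this process.

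Total counts were 21985590 to 25991708 in the untreated libraries, 20261396 to 25720579 with Tet2-WT and 14310277 to 25326826 with pMXs. Tet2 RNA, which checks whether Tet2 was supplied, averaged 43.8 CPM (counts-per-million) in untreated, 46.4 CPM in pMXs and 1220 CPM in Tet2-WT cells. Tet2-WT and untreated libraries did not overlap (log2 fold change 4.80 ± 0.31, SE, edgeR adjusted p = 2.01e-08). In the Tet2-E cells of the study, given another Tet2 vector, it averaged 1160 CPM. The level therefore does not tell wild-type Tet2 from that vector. The counts cannot separate transcripts of the vector from those of the disrupted gene. The summed level of 12 fibroblast identity markers ran from 39400 to 41700 CPM in untreated libraries, from 16400 to 18500 with pMXs and from 10300 to 12000 with Tet2-WT. On the first principal component of log2 CPM, which carried 82.8% of the variance, untreated libraries lay between -129 and -124, pMXs between 24 and 34 and Tet2-WT between 46.6 and 52.5.

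The change with Tet2-WT was broad. Of 14607 genes tested, 10617 changed from untreated (72.7%; edgeR quasi-likelihood test, Benjamini-Hochberg adjusted p under 0.05), 5455 higher (37.3%) and 5162 lower (35.3%). Of these, 4750 (32.5%) changed by at least 2-fold and 617 by at least 16-fold. The median absolute log2 fold change over all genes tested was 0.62. Libraries of both groups did not overlap for 74.3% of genes. Against pMXs, Tet2-WT cells differed at 1830 genes (12.5%), 878 higher (6.01%) and 952 lower (6.52%), of which 529 (3.62%) differed by at least 2-fold, 246 higher (1.68%) and 283 lower (1.94%), and 12 by at least 16-fold. The median absolute difference was 0.15, and the libraries did not overlap for 34.6% of genes. This count rests partly on single libraries: it was 1175 when pMXs replicate 100 was left out, 1097 for pMXs replicate 250, 1107 for Tet2-WT replicate 1 and 1135 for Tet2-WT replicate 2. The untreated libraries cancel in the difference between the day 5 change with Tet2-WT and that with pMXs, so this comparison is also the test of whether the day 5 changes differ.

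**Figure D1:**
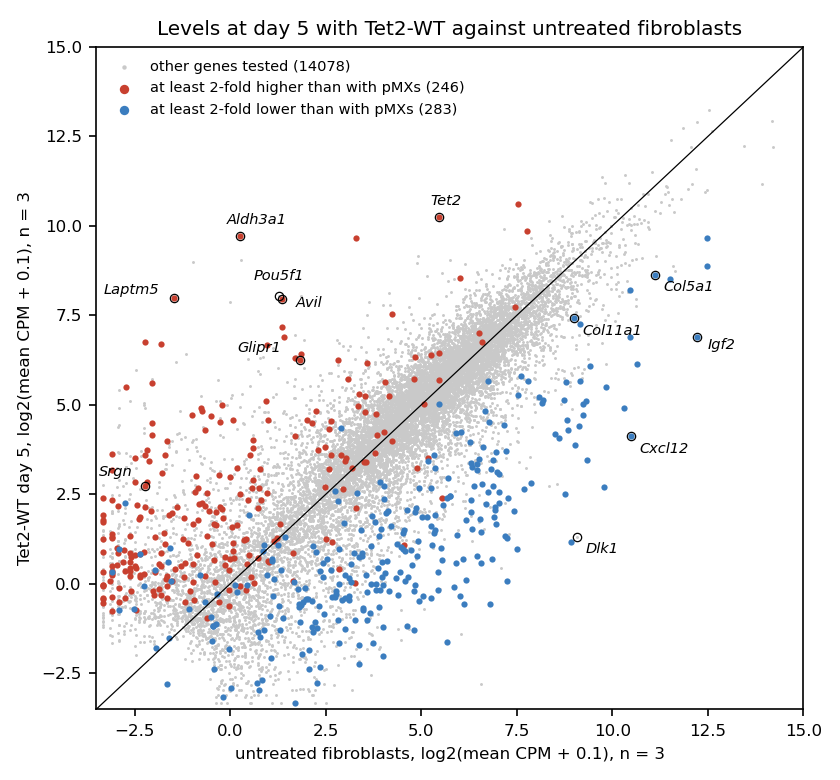
Mean level of each of the 14607 genes tested in Tet2-WT cells at day 5 (vertical axis) and untreated fibroblasts (horizontal axis), both as log2(mean CPM + 0.1) over 3 libraries, with the diagonal marking equal levels. Red points are the 246 genes at least 2-fold higher and blue points the 283 at least 2-fold lower with Tet2-WT than with pMXs (edgeR adjusted p under 0.05), and gene names mark genes described in the text. Tet2, Aldh3a1, Laptm5 and Avil lie above the diagonal, and Cxcl12, Igf2, Col5a1 and Dlk1 below it.

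The genes that rose with the smallest p among changes of at least 2-fold were mostly silent or low in untreated cells. Fgfbp1, which encodes a carrier of fibroblast growth factors, was at 0.208, 0.151 and 0.195 CPM in untreated replicates 1, 2 and 100 and at 108, 106 and 99 CPM in Tet2-WT replicates 1, 2 and 250 (log2 fold change 9.09 ± 0.16, SE, n = 3 and 3, edgeR adjusted p = 8.29e-15). Aldh3a1, an aldehyde dehydrogenase of epithelia, went from 1.08, 1.21 and 0.974 CPM to 925, 844 and 746 CPM (9.58 ± 0.21, edgeR adjusted p = 3.47e-14). The 3 Tet2-WT libraries of each gene were close to each other and far above every untreated one, no overlap being a condition of the choice. Cxadr, an adhesion receptor of epithelial tight junctions, was already present in untreated cells at 12.9, 12.2 and 11.7 CPM and reached 233, 239 and 237 CPM (4.26 ± 0.08). Chst3, a chondroitin sulfotransferase, rose by 5.88 ± 0.12, Srd5a1, a steroid reductase, by 4.61 ± 0.10, and Avil, which encodes the actin-binding protein advillin, by 6.66 ± 0.16. Rec8 (meiotic cohesin, 6.23), Pllp (a membrane protein of the myelin family, 7.88), Bex1 (5.93) and Tek (an angiopoietin receptor, 4.56) complete this group of 10.

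These 10 genes did not stand alike against pMXs. Fgfbp1 (1.06), Aldh3a1 (1.87), Chst3 (1.66), Srd5a1 (1.18) and Avil (2.03) were higher with Tet2-WT than with pMXs on the log2 scale, each with edgeR adjusted p at or under 2.33e-06. Bex1 was lower (-0.46, adjusted p = 0.00336). For Cxadr (0.12 ± 0.07, adjusted p = 0.347), Rec8 (0.22 ± 0.08), Pllp (-0.10 ± 0.10) and Tek (0.09 ± 0.08) a difference did not pass. For Rec8 it did with a term for the set of replicate numbers (adjusted p = 0.0459).

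Among the genes that fell, Dlk1, an imprinted gene of fetal mesenchyme, had the smallest p. It was at 625, 480 and 515 CPM in untreated libraries and at 2.67, 2.46 and 2.05 CPM with Tet2-WT (log2 fold change -7.81 ± 0.16, SE, n = 3 and 3, edgeR adjusted p = 1.85e-14). Timp2, an inhibitor of matrix metalloproteases, fell from 3130, 3150 and 3280 CPM to 413, 417 and 447 CPM (-2.90 ± 0.08). The levels of both genes were more than their library spread apart, while no overlap of libraries was a condition of the choice. Slc5a7, the choline transporter, went from 82, 106 and 93.7 CPM to 1.45, 1.19 and 1.58 CPM (-6.07 ± 0.15). Arhgap36 (-7.83), the cadherin gene Cdh3 (-4.48), Oaf (-4.17), the carboxypeptidase-like gene Cpxm1 (-3.99), the glycosyltransferase gene Wbscr17 (-3.62), Maged2 (-2.77) and the endoplasmic reticulum gene Rcn3 (-2.73) made up the rest. Of these 10, all but Dlk1 were also lower with Tet2-WT than with pMXs, with log2 differences from -0.62 (Timp2) to -1.78 (Arhgap36). Dlk1 was at 3.11, 2.64 and 4.24 CPM with pMXs, and a difference did not pass (adjusted p = 0.159).

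To describe the state with Tet2 against that without it, genes were taken that differed from pMXs (edgeR adjusted p under 0.05) by at least 2-fold, had a mean of at least 5 CPM in either day 5 group and showed no overlap between Tet2-WT and pMXs libraries. There were 235, and they were sorted by where the untreated level lay. Where Tet2-WT and pMXs libraries of these genes are described below as apart, the choice required it. The 3 pairwise comparisons share their libraries, so the classes describe positions of 3 group means and are not independent results. Against untreated, pMXs cells had changed at 70.1% of genes tested, with no overlap for 72%. In 171 genes both day 5 groups had left the untreated level on the same side and Tet2-WT lay farther out, 65 of them higher and 106 lower. In 29 genes the change from untreated passed, at 2-fold or more, with Tet2-WT and did not pass with pMXs, 16 higher and 13 lower. In 17 genes pMXs had moved by at least 2-fold and Tet2-WT lay nearer to untreated, 11 with a level above and 6 with a level below that of pMXs. In 6 genes the day 5 groups lay on opposite sides of untreated, all with Tet2-WT above, and 12 genes met none of these definitions.

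The genes that lay farther out with Tet2-WT include the clearest differences from pMXs. Mst1, which encodes macrophage-stimulating protein, a secreted ligand, was at 0.416, 0.353 and 0.438 CPM in untreated libraries, at 4.95, 5.67 and 5.48 CPM with pMXs and at 26.3, 27.9 and 24.9 CPM with Tet2-WT. P2rx7, an ATP-gated ion channel, stood at 2.46, 3.48 and 3.41, at 16.3, 18 and 21.2 and at 86.4, 78.8 and 73.1 CPM in the same order. Avil stood at 2.96, 2.62 and 1.75, at 60.7, 61.5 and 61.1 and at 262, 246 and 241 CPM. In each of the 3 genes the 9 libraries fell into 3 separate levels in the order untreated, pMXs, Tet2-WT. Against untreated Mst1 rose by 6.01 ± 0.18 and P2rx7 by 4.68 ± 0.13 on the log2 scale. Adh7, an alcohol and retinol dehydrogenase of epithelia, rose by 3.44 with Tet2-WT, 1.37 above pMXs.

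On the falling side the order was reversed. Cxcl12, a chemokine made by stromal cells, was at 1310, 1310 and 1680 CPM in untreated libraries, at 96.1, 90.7 and 89.4 CPM with pMXs and at 14.5, 16.1 and 21.5 CPM with Tet2-WT (-6.37 ± 0.19 against untreated, -2.41 ± 0.16 against pMXs, edgeR adjusted p = 6.14e-07 for the latter). Col5a1, a chain of fibrillar collagen, was at 2400, 2200 and 2070, at 785, 869 and 865 and at 418, 398 and 384 CPM (-2.48 ± 0.08 and -1.07 ± 0.08). Neither gene had libraries of different groups in overlap. Tnc, which encodes the matrix protein tenascin C, fell by 2.25 against untreated (-1.17 against pMXs). Mfap4, a microfibril protein, fell by 4.89 against untreated (-1.65 against pMXs). Igf2, a fetal growth factor, fell by 5.32 ± 0.38 from untreated, and its growth-suppressing neighbour H19 by 6.96 ± 0.51.

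The promoters of 4 of these genes, 2 higher and 2 lower than with pMXs, show how far CpG content differs between single genes. CpG is the dinucleotide whose cytosine DNA methylation and Tet2 act on. The 4 were picked by hand and do not stand for the higher and lower genes as groups. Each line gives the 250 bases before the RefSeq gene start on GRCm38.p6, plus strand in all 4, 5′ to 3′, with CG dinucleotides in capitals: Avil at chr10:127000459-127000708, Mst1 at chr9:108080186-108080435, Cxcl12 at chr6:117168285-117168534 and Col5a1 at chr2:27886175-27886424.
Avil: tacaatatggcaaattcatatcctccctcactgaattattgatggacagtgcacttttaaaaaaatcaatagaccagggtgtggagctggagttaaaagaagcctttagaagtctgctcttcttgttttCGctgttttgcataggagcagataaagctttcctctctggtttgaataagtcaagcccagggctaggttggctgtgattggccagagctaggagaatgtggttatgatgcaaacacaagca
Mst1: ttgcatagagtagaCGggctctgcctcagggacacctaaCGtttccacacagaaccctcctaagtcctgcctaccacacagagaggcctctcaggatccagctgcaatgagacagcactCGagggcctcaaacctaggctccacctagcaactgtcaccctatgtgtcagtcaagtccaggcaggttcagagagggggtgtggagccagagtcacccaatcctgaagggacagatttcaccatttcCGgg
Cxcl12: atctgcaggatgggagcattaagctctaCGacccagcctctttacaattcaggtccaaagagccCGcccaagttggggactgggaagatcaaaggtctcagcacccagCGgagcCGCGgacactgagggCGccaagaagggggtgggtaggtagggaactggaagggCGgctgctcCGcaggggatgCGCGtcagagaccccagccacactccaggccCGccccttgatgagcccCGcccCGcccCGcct
Col5a1: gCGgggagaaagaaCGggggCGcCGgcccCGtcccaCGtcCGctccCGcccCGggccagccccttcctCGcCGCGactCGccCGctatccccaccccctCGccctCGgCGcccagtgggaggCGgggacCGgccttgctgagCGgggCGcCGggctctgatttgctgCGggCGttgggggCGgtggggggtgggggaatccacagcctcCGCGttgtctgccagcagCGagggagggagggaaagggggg
Avil held 1 CG in this window, Mst1 4, Cxcl12 14 and Col5a1 28. Over all 32851 windows of the RefSeq table the median was 6 (quartiles 2 and 16), 92.1% held at least 1 CG and 44.4% held at most 4. CG reads the same on both strands.

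The genes changed with Tet2-WT and not called with pMXs lack a pMXs change by the definition of their class. The missing call does not make their untreated and pMXs levels equal. Glipr1, a secreted protein of the CAP family, was at 3.37, 4.23 and 2.73 CPM in untreated libraries, at 4.25, 2.45 and 1.98 CPM with pMXs and at 80.3, 78.2 and 68.7 CPM with Tet2-WT (4.46 ± 0.36 against untreated, edgeR adjusted p = 1.74e-07). Srgn, the proteoglycan serglycin of secretory granules, was at 0.0416 to 0.195, at 0.137 to 0.38 and at 6.07 to 6.75 CPM (5.83 ± 0.44), from a few counts in the untreated libraries. Both genes had overlapping untreated and pMXs libraries and Tet2-WT libraries far above. Slc27a1, a fatty acid transporter, was at 44.5, 30.4 and 39.3, at 35, 35.8 and 38.6 and at 82, 87.2 and 84.4 CPM (1.15 ± 0.11). The T cell costimulatory ligand Cd80 rose by 1.10 and the mitochondrial carrier gene Slc25a45 by 1.98.

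Among the lower genes of this class were 3 that encode matrix proteins. Col11a1, a fibrillar collagen of cartilage, was at 427, 484 and 632 CPM in untreated libraries, at 493, 494 and 625 CPM with pMXs and at 168, 167 and 180 CPM with Tet2-WT (-1.58 ± 0.14 against untreated, edgeR adjusted p = 5.19e-08). Tgfbi, a matrix protein induced by TGF-beta, was at 127, 106 and 89.9, at 119, 115 and 110 and at 55.3, 48 and 50 CPM (-1.07 ± 0.10). In both genes all 3 Tet2-WT libraries lay below all 6 others, which overlapped. The collagen gene Col27a1 fell by 1.31, the potassium channel gene Kcnk2 by 2.45, Kank4 by 1.67 and Lmcd1 by 1.84. For Lmcd1 the untreated (12.9 to 13.1 CPM) and pMXs libraries (9.38 to 11.6 CPM) did not overlap. For Kcnk2 the pMXs mean was itself lower than untreated, with edgeR adjusted p = 0.0554. It passed without untreated replicate 100 (0.0235) or pMXs replicate 250 (0.0176), by DESeq2 (0.0499), with RLE scaling (0.0497) and with a term for the replicate number (0.0397) or the set (0.0274), so its place in this class is not firm.

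Genes nearer to untreated with Tet2-WT than with pMXs had moved in the pMXs cells and less, or not detectably, with Tet2. Fes, a tyrosine kinase known from myeloid cells, was at 13.7, 14.2 and 13.4 CPM in untreated libraries, at 3.8, 5.25 and 5.41 CPM with pMXs and at 11.2, 13.2 and 12.9 CPM with Tet2-WT. Tlr4, the receptor for bacterial lipopolysaccharide, was at 28.9, 30.9 and 41.1, at 11.9, 14 and 14.3 and at 31.2, 31.4 and 34.3 CPM. With Tet2-WT both genes stood near their untreated level and clear of every pMXs library. The Tet2-WT libraries lay within the untreated range for Tlr4. For Fes all of them lay below it (11.2 to 13.2 against 13.4 to 14.2 CPM). The log2 differences of Fes and Tlr4 were -0.15 ± 0.12 and -0.06 ± 0.13 from untreated (edgeR adjusted p = 0.271 and 0.703) and 1.36 and 1.27 from pMXs. Against pMXs the endosomal GTPase gene Rab7b was 1.54, the cAMP-activated exchange factor gene Rapgef3 1.08, Nav3 1.61 and the homeobox gene Hlx 1.02 higher, and for none of them did a change from untreated pass (adjusted p = 0.101, 0.53, 0.19 and 0.453). For Rab7b it did with a term for the set of replicate numbers (adjusted p = 0.0355) and in a fit of the 2 groups alone (0.0336).

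In the other direction, Fgf9, a growth factor, was at 0.833, 1.56 and 1.51 CPM in untreated libraries, at 9.38, 11.7 and 12 CPM with pMXs and at 3.28, 3.77 and 3.92 CPM with Tet2-WT. It rose with Tet2-WT by 1.51 ± 0.22 against untreated but lay below pMXs (-1.59). Egfl6, a secreted EGF-repeat protein, was at 4.58, 6.2 and 11.2, at 62.1, 51.2 and 43.9 and at 19.6, 21.8 and 19.6 CPM, and Stum rose by 2.99 from untreated and lay below pMXs (-1.73). For the retinaldehyde dehydrogenase gene Aldh1a2 (-0.11 ± 0.25, adjusted p = 0.701) and the imprinted gene Nap1l5 (-0.19 ± 0.21, adjusted p = 0.428) a change from untreated did not pass with Tet2-WT. Both were lower than with pMXs (-1.51 and -1.33). Crym, the thyroid hormone binding protein crystallin mu, was listed at 0, 0 and 0.146 CPM in untreated libraries, at 9.07, 14.2 and 17.7 CPM with pMXs and at 3.89, 3.88 and 6.35 CPM with Tet2-WT. Its difference from pMXs (-1.54, adjusted p = 0.0112) did not pass without pMXs replicate 250 (0.051), Tet2-WT replicate 1 (0.056) or Tet2-WT replicate 2 (0.0587).

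The 6 genes on opposite sides of untreated rose by less than 2-fold with Tet2-WT. With pMXs, Nefm (-1.30), Xaf1 (-1.03) and Neu3 (-1.03) fell by at least 2-fold, and Actg2 (-0.65), Col9a3 (-0.57) and Parvb (-0.47) by less. Parvb, which encodes the focal adhesion protein beta-parvin, was at 30.9, 29.7 and 23.5 CPM in untreated libraries, at 23.7, 18.4 and 18.8 CPM with pMXs and at 57.4, 57.4 and 44.9 CPM with Tet2-WT (0.93 ± 0.17 against untreated, edgeR adjusted p = 0.000126). Actg2, a smooth muscle actin, was at 96.6, 98.2 and 79.5, at 71.2, 50.9 and 52.6 and at 126, 136 and 124 CPM (0.49 ± 0.16, adjusted p = 0.012). All Tet2-WT libraries of both genes were above all others, while 1 pMXs library of Parvb lay within the untreated range. The interferon-induced gene Xaf1 (0.43), the sialidase gene Neu3 (0.50), the collagen gene Col9a3 (0.64) and the neurofilament gene Nefm (0.97) also rose against untreated, Col9a3 and Nefm with overlapping libraries.

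Of these rises only that of Parvb passed without any 1 library. Actg2 did not pass without untreated replicate 100 (edgeR adjusted p = 0.0668) and Col9a3 not without Tet2-WT replicate 1 (0.0653) or 2 (0.0834). Nefm did not pass without untreated replicate 2 (0.108) or 100 (0.0916) or Tet2-WT replicate 1 (0.113) or 2 (0.115), nor by DESeq2 (0.0671) or with no filter (0.0689). Neu3 did not pass without untreated replicate 1 (0.0608), 2 (0.085) or 100 (0.0548) or Tet2-WT replicate 1 (0.0956) or 2 (0.0984). Xaf1 did not pass without untreated replicate 1 (0.0982) or 2 (0.123) or Tet2-WT replicate 1 (0.158) or 2 (0.0716), nor with RLE scaling (0.0515), DESeq2 (0.0527) or a term for the replicate number (0.0594). The pMXs side of Parvb (-0.47 against untreated, adjusted p = 0.0231) did not pass without untreated replicate 1 (0.0908) or 2 (0.0642) or pMXs replicate 100 (0.0899) or 250 (0.0738).

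**Figure D2:**
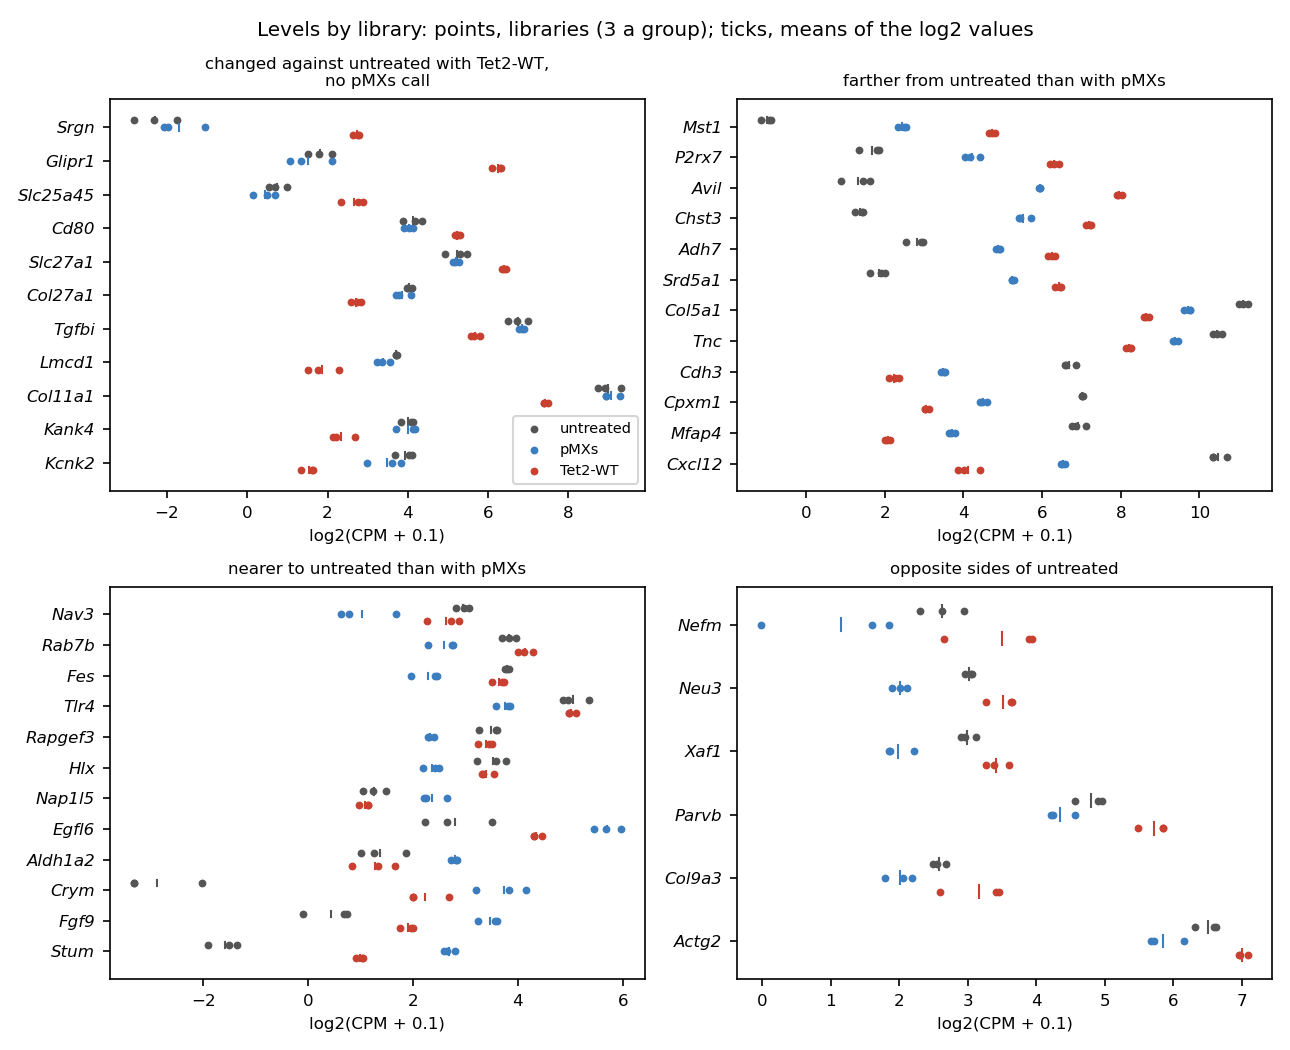
Levels of genes that differ between Tet2-WT and pMXs, sorted into 4 panels by where the untreated level lay. The horizontal axis is log2(CPM + 0.1), each point is 1 library (3 a group, untreated dark grey, pMXs blue, Tet2-WT red) and ticks are means of the log2 values. Glipr1 has overlapping untreated and pMXs points and Tet2-WT points at 68.7 to 80.3 CPM, while Mst1, P2rx7 and Avil show 3 separate levels.

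Gene lists by function give the shape of the whole change. They were described by the number of members tested that rose or fell, beside 37.3% rising and 35.3% falling over all genes. The median log2 fold change over all genes tested was 0.02.

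**Figure D3:**
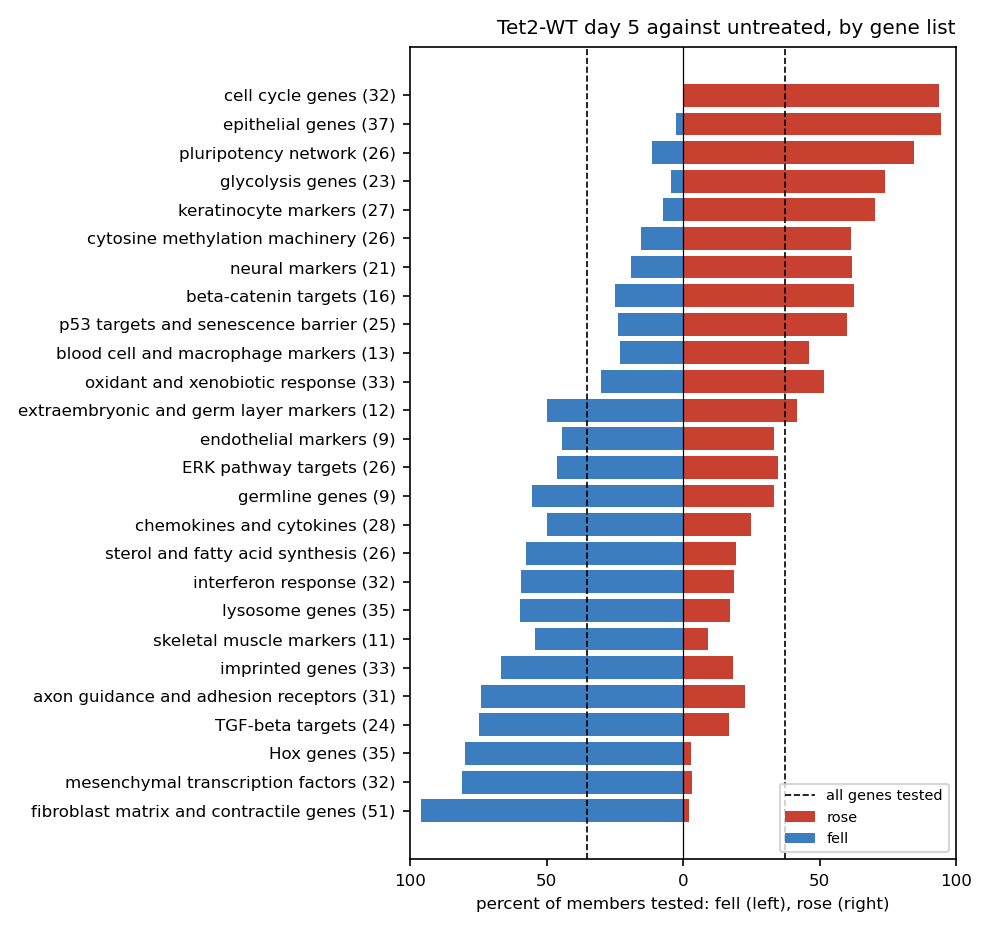
Share of tested members that rose (red, to the right) or fell (blue, to the left) with Tet2-WT at day 5 against untreated fibroblasts for 26 gene lists, with the number tested in parentheses. Dashed lines mark the shares over all genes tested, 37.3% and 35.3%. Lists are ordered by the share rising less the share falling. They run from cell cycle genes, of which 30 of 32 rose, to matrix and contractile genes, of which 49 of 51 fell.

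Genes of the fibroblast matrix fell in each class of the list. Of 51 matrix and contractile genes tested 49 fell and 1 rose (median log2 fold change -2.25): 12 of 12 collagens, 18 of 18 glycoproteins and proteoglycans, 10 of 10 matrix enzymes and 9 of 11 surface and cytoskeletal genes fell. Col1a1, the main collagen of connective tissue, was at 20800, 18900 and 16800 CPM in untreated libraries and at 5000, 4650 and 4470 CPM with Tet2-WT (-2.0 ± 0.10, edgeR adjusted p = 1.04e-10). Fn1 (fibronectin) fell by 2.75, Col3a1 by 2.79, the proteoglycan gene Bgn by 3.59 and the fibroblast surface gene Thy1 by 3.02. The hyaluronan receptor gene Cd44 was the member that rose (494, 561 and 438 CPM to 941, 870 and 865 CPM, 0.84 ± 0.10). Against pMXs, 27 of the 51 were lower and 2 higher, where 6.52% and 6.01% of all genes were. These were 7 of 12 collagens, 11 of 18 glycoproteins and proteoglycans, 5 of 10 enzymes and 4 of 11 surface and cytoskeletal genes. Col1a1, at 7720, 7500 and 9110 CPM with pMXs, was lower with Tet2-WT (-0.79), as were Col3a1 (-1.12) and Bgn (-1.24).

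Transcription factors of mesenchyme moved with the matrix. Of 32 tested, 26 fell and 1 rose (median -1.20). Osr1, a factor of limb and kidney mesenchyme, went from 113, 84.3 and 85.3 CPM to 2.3, 2.69 and 2.96 CPM (-5.15 ± 0.26, edgeR adjusted p = 3.27e-10), Lhx9 fell by 3.39 and Prrx2 by 2.39, and Foxd1 was the member that rose (0.87). Osr1 (-1.59), Lhx9 (-1.03) and Prrx2 (-0.62) were also lower than with pMXs. In all 10 of the 32 were lower and 1 higher than with pMXs, 11 differences that became 6 without pMXs replicate 100 or Tet2-WT replicate 1. They became 4 without Tet2-WT replicate 2. Of 35 Hox genes, which mark position along the body, 28 fell against untreated, Hoxb9 by 1.65, and Hoxd9 rose (0.70, edgeR adjusted p = 0.0325). Hoxd9 did not pass without untreated replicate 1 (0.108) or 2 (0.0748) or Tet2-WT replicate 250 (0.116). Against pMXs 1 Hox gene was lower. The number that differed was 0 to 2 without single libraries, 2 with a term for the replicate number and 3 with one for the set.

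Genes of axon guidance, which fibroblasts use in adhesion and migration, fell in 23 and rose in 7 of 31 of those tested (median -1.61). The netrin receptor gene Unc5c went from 120, 155 and 161 CPM to 2.96, 2.39 and 1.91 CPM (-5.91 ± 0.17, edgeR adjusted p = 2.93e-13), and the semaphorin gene Sema3f from 145, 122 and 109 CPM to 2.77, 2.72 and 3.73 CPM (-5.36 ± 0.32). In both genes the pMXs libraries lay in between, at 6.78 to 9.65 CPM for Unc5c and 10.9 to 18.8 CPM for Sema3f. Slit2, a repulsive ligand, fell by 1.90, its receptor gene Robo2 by 3.91 and the ephrin receptor gene Ephb2 by 2.94. Against pMXs 13 of 31 were lower and 1 higher: 4 of 11 semaphorin genes, 5 of 12 ephrin genes and 4 of 8 slit and netrin genes were lower. The higher one was the ephrin receptor gene Epha2, at 73.8, 72.6 and 58.1 CPM in untreated libraries, 72.9, 73.6 and 64.9 CPM with pMXs and 125, 124 and 99.5 CPM with Tet2-WT (0.77 against untreated).

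Of 24 genes known as targets of TGF-beta 18 fell and 4 rose (median -1.16), among the former the ligand gene Tgfb3 (-1.63). Tgfb3 was lower than with pMXs (-0.65), and 9 targets differed from pMXs, 8 lower and 1 higher, or 5 without pMXs replicate 2, pMXs replicate 250 or either Tet2-WT replicate 1 or 2. Of 28 chemokines, cytokines and growth factors 14 fell and 7 rose. Hgf, hepatocyte growth factor, went from 17.9, 22.3 and 26.3 CPM to 0.235, 0 and 0.478 CPM. In this list 3 were higher and 6 lower than with pMXs, 9 that became 4 without pMXs replicate 100 or 250 or Tet2-WT replicate 1 or 2.

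The epithelial list had 35 members rising and 1 falling of 37 tested (median 3.92, or 3.77 with genes at 0 counts in untreated cells set to the bound that 3 counts over the group allow). All 20 junction genes tested rose. Cdh1, E-cadherin, went from 0.749, 1.41 and 0.536 CPM to 262, 261 and 180 CPM (8.04 ± 0.25, edgeR adjusted p = 1.9e-12). Epcam, an epithelial adhesion molecule, was at 0.0416 to 0.202 CPM in untreated and 8.22 to 14.5 CPM in Tet2-WT libraries. Of the 20 junction genes 0 differed from pMXs by edgeR, against 5 at an unadjusted p under 0.05 and 1 by DESeq2. With pMXs Cdh1 was at 355, 273 and 286 CPM (-0.38 ± 0.16, adjusted p = 0.143). Cdh1 did pass with a term for the replicate number (0.0275) or the set (0.00976). Elsewhere in the list 4 genes were higher than with pMXs, among them Krt8, Krt18 and Ehf, and the number was 9 without Tet2-WT replicate 250. With a term for the set of replicate numbers 6 of the list were higher and 1 lower. Krt18, a keratin of simple epithelia, was at 1.21, 1.46 and 1.61 CPM in untreated libraries, at 1.65, 2.64 and 2.05 CPM with pMXs and at 9.85, 7.05 and 5.25 CPM with Tet2-WT (2.38 against untreated, 1.77 against pMXs). Its partner Krt8 rose by 6.94 and lay 1.08 above pMXs, and the epithelial factor gene Ehf was at 34.1, 35.5 and 33.5 CPM against 22.3, 17.5 and 14.5 CPM with pMXs.

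Markers of keratinocytes, the cells of stratified epithelium, rose in 19 and fell in 2 of 27 (median 2.27). Itgb4, the integrin chain that anchors epithelia to the basement membrane, went from 11.2, 9.37 and 8.57 CPM to 954, 848 and 610 CPM (6.37 ± 0.22, edgeR adjusted p = 4.63e-12), against 382, 298 and 304 CPM with pMXs. Lama3, a chain of the laminin that Itgb4 binds, rose by 2.62 and lay 1.32 above pMXs. Col17a1, a hemidesmosome collagen, stood at 0.633 to 0.749 CPM in untreated, 0.274 to 0.38 CPM in pMXs and 2.46 to 3.85 CPM in Tet2-WT libraries. No library of Tet2-WT overlapped another group in these 3 genes. Of the list 9 were higher than with pMXs, and 5 differed without pMXs replicate 100 or Tet2-WT replicate 1. The 9 were 4 of 8 keratins, 4 of 8 adhesion genes and 1 of 10 envelope genes. The 1 regulator tested was called in neither comparison, and it was lower than with pMXs at an unadjusted edgeR p under 0.05. The summed level of the list was 168 to 176 CPM in untreated, 867 to 1010 CPM in pMXs and 1270 to 1790 CPM in Tet2-WT libraries, much of the rise over pMXs being Itgb4.

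The OKSM genes rose: Pou5f1 from 3.16, 2.52 and 1.27 CPM to 285, 254 and 248 CPM (6.80 ± 0.21, edgeR adjusted p = 8.44e-13), Sox2 by 6.22, Myc by 3.29 and Klf4 by 1.47. Of the 4, 0 differed from pMXs by edgeR (adjusted p = 0.191, 0.462, 0.513 and 0.244) and 0 by DESeq2, with 1 at an unadjusted p under 0.05. In a fit of the 2 groups alone Pou5f1 was higher than with pMXs (0.31, adjusted p = 0.0136). The counts do not tell transgene from endogenous transcripts. Of 26 genes of the pluripotency network tested 22 rose and 3 fell (median 3.73, or 3.36 with genes at 0 set to the bound). Nanog, a core factor of the network, was low throughout, at 0.791, 0.655 and 0.341 CPM in untreated and 10.1, 12.7 and 4.92 CPM in Tet2-WT libraries (3.94 ± 0.41). Fgf4, a growth factor of pluripotent cells, was at 0 to 0.151 CPM in untreated and 65.3, 68.6 and 54.7 CPM in Tet2-WT libraries, and Gdf3, a TGF-beta family ligand, at 0 to 0.101 and 20.1, 22 and 22.3 CPM. Klf2 (-1.24) and Lefty1 (-2.11) were among the 3 that fell. Against pMXs 4 were higher and 3 lower. That count of 7 was 2 without pMXs replicate 100 or Tet2-WT replicate 1, 3 without Tet2-WT replicate 250 and 4 without pMXs replicate 250 or Tet2-WT replicate 2. Another 10 listed genes had too few counts to be tested.

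Genes of division and sugar use rose. Of 32 cell cycle genes 30 rose (median 1.17), 15 of 17 of S phase and 15 of 15 of G2 and M phase. Mki67, a marker of cycling cells, rose by 1.13 (191, 199 and 129 CPM to 396, 390 and 349 CPM), the mitotic kinase gene Aurka by 1.81 and the nucleotide reductase gene Rrm1 by 1.78. Against pMXs 1 was higher, and 0 differed without pMXs replicate 250 or Tet2-WT replicate 2. Of 23 glycolysis genes 17 rose and 1 fell (median 0.93), with the glucose transporter gene Slc2a3 at 3.62 and hexokinase gene Hk2 at 2.38, and 3 were higher and 1 lower than with pMXs. Of 26 sterol and fatty acid genes 15 fell and 5 rose. Those that fell included 11 of 15 sterol genes, such as Hmgcs1 (-1.17), while 4 of 8 fatty acid genes rose, such as Fasn (1.05). From pMXs 3 differed, and 1 without pMXs replicate 100 or 250 or Tet2-WT replicate 1. Of 25 p53 targets and senescence genes 15 rose and 6 fell. Of 18 p53 targets 14 rose and 1 fell. Gdf15, a stress-induced cytokine, went from 14.1, 11.6 and 8.47 CPM to 44.3, 40.5 and 29.9 CPM (1.74) and lay 1.20 above pMXs. The cell cycle inhibitor gene Cdkn1a, counted among the p53 targets, rose by 0.54. All 4 genes listed separately as inhibitors fell, and 1 of them was also lower than with pMXs. In this list 4 were higher and 2 lower than with pMXs, 6 in all. That number was 3 without pMXs replicate 2, 2 without pMXs replicate 100 or Tet2-WT replicate 1, and 1 without pMXs replicate 250 or Tet2-WT replicate 2.

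Targets of the pathways that the day 5 medium acts on moved in both directions. Of 26 ERK pathway targets 12 fell and 9 rose. The 9 include the OKSM gene Myc (3.29), for which the counts do not tell transgene from endogenous transcripts. The immediate early factor gene Egr1 went from 342, 304 and 479 CPM to 7.36, 7.05 and 6.11 CPM (-5.77 ± 0.25, edgeR adjusted p = 1.61e-10), and Spry1, a feedback inhibitor, fell by 2.55, while the ETS factor gene Etv5 rose by 1.29. From pMXs 3 differed, with Spry1 lower (-0.78). Of 16 beta-catenin targets 10 rose and 4 fell. Axin2, the feedback target, rose from 8.41, 8.66 and 7.3 CPM to 21.4, 24.6 and 22.1 CPM (1.48) but was at 31, 36.2 and 34.6 CPM with pMXs (-0.58 against it), and Ccnd1, cyclin D1, rose by 1.00. Of the 16, 1 was higher and 3 lower than with pMXs, a count of 4 that was 2 without pMXs replicate 100 or Tet2-WT replicate 2.

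Of 32 genes of the interferon response tested 19 fell and 6 rose (median -0.73). All 5 regulators fell, among them Stat2, a factor of interferon signalling (50.3, 48.7 and 49.1 CPM to 14, 15.4 and 13.5 CPM, -1.79 ± 0.09, edgeR adjusted p = 6.65e-11), and 0 of the 5 differed from pMXs by edgeR or DESeq2, with 1 at an unadjusted p under 0.05. Of 23 effectors 12 fell and 5 rose, and 9 were higher than with pMXs. Isg15, an interferon-induced ubiquitin-like modifier, was at 5.49, 6.05 and 5.26 CPM in untreated libraries, at 0.761, 0.46 and 0.89 CPM with pMXs and at 2.49, 2.46 and 1.96 CPM with Tet2-WT (-1.28 against untreated, 1.78 against pMXs). Its 3 groups did not overlap, with Tet2-WT in between. The guanylate-binding gene Gbp2 fell by 2.24. Across single libraries left out, 6 to 10 members of the list differed from pMXs.

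**Figure D4:**
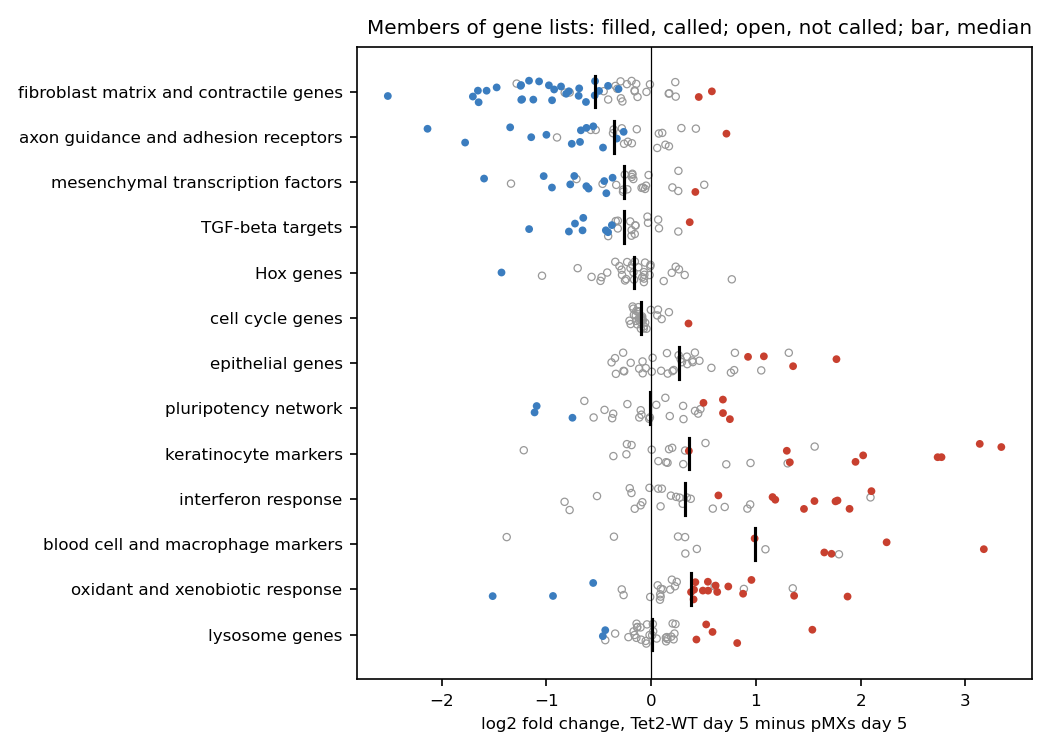
Log2 fold change of Tet2-WT day 5 minus pMXs day 5 (horizontal axis) for the tested members of 13 gene lists, each point 1 gene, filled red where higher and blue where lower by the edgeR test and open grey where not called, with a black bar at each list's median. Called members of the matrix, guidance, mesenchymal factor and TGF-beta lists lie mostly on the lower side, and those of the keratinocyte, interferon, blood and oxidant lists on the higher side.

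Markers of blood cells and macrophages were read as a check on other cell types. Of 31 listed 13 were tested, of which 6 rose and 3 fell against untreated, and 5 were higher than with pMXs. Laptm5, a lysosomal membrane protein of blood cells, went from 0.291, 0.302 and 0.195 CPM to 282, 281 and 191 CPM (9.86 ± 0.26, edgeR adjusted p = 1.81e-13), against 88.1, 75 and 76.8 CPM with pMXs. Itgam, an integrin chain of myeloid cells, was at 0.0504 to 0.167 CPM in untreated, 0.479 to 1.2 CPM in pMXs and 6.69 to 7.69 CPM in Tet2-WT libraries, and Cd68, a lysosomal glycoprotein, at 0.876 to 1.76, 4.59 to 5.07 and 14.2 to 18.8 CPM. All 3 genes rose in separate levels from untreated over pMXs to Tet2-WT. The summed level of the 31 markers was 75.1 to 79.8 CPM in untreated, 112 to 129 CPM in pMXs and 281 to 359 CPM in Tet2-WT libraries, most of the last being Laptm5. Of the 31, 8 were at 0 counts in all Tet2-WT libraries: the macrophage genes Adgre1, C1qa, C1qb, C1qc, Lyz1 and Tyrobp, and Cd52 and Was. The leukocyte gene Ptprc had 5, 0 and 1 counts and the myeloid factor gene Spi1 2, 1 and 1 counts over the 3 untreated, pMXs and Tet2-WT libraries. Arhgdib, an inhibitor of small GTPases in blood cells, was at 64.1, 66.8 and 60.6 CPM in untreated libraries, at 23.6, 25.6 and 22.8 CPM with pMXs and at 39.1, 45.3 and 58.9 CPM with Tet2-WT (-0.42 against untreated, 0.99 against pMXs).

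Of 35 lysosome genes 21 fell and 6 rose (median -0.51), with the hydrolase gene Hexa at -1.50 and the cathepsin gene Ctsz at 1.16. Against pMXs 5 were higher and 2 lower, 7 that became 4 without Tet2-WT replicate 1. The protease gene Ctsd was at 1440, 1400 and 1500 CPM in untreated libraries, at 839, 787 and 819 CPM with pMXs and at 1600, 1480 and 1230 CPM with Tet2-WT, 0.82 above pMXs. Its Tet2-WT libraries spanned the untreated range and lay clear of pMXs.

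Genes of oxidant and xenobiotic defence rose in 17 and fell in 10 of 33 (median 0.28). Nfe2l2, the master regulator of the antioxidant response (NRF2), was at 112, 120 and 113 CPM in untreated libraries, at 151, 167 and 144 CPM with pMXs and at 242, 243 and 231 CPM with Tet2-WT (1.05 ± 0.07, edgeR adjusted p = 4.54e-09). The glutathione reductase gene Gsr rose by 1.76, the pentose phosphate gene G6pdx by 1.18 and the glutathione transferase gene Gsto1 by 1.29. They were 0.54, 0.49 and 0.74 above pMXs, and Nfe2l2 was 0.63 above. Hmox1, heme oxygenase, was at 178, 181 and 169 CPM in untreated, 136, 134 and 130 CPM in pMXs and 189, 180 and 166 CPM in Tet2-WT libraries, where Tet2-WT and untreated overlapped and pMXs lay below both. Srxn1, a peroxiredoxin repair enzyme, fell by 0.50 from untreated and was 0.62 above pMXs. In all 14 of 33 were higher and 3 lower than with pMXs, and 13 to 18 differed when single libraries were left out. Among the lower ones were the aryl hydrocarbon receptor gene Ahr and Cyp1b1, which do not stand for that pathway as a whole. Aldh3a1, in the same list, was higher than with pMXs (1.87). The receptor gene Ahr went from 122, 122 and 102 CPM to 28.5, 26.7 and 43.6 CPM (-1.81), against 47.7, 64.8 and 76.4 CPM with pMXs (-0.94, adjusted p = 0.00826, and 0.0607 in a fit of the 2 groups alone). Its target Cyp1b1 fell by 1.14 (-0.55 against pMXs).

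Imprinted genes fell in 22 and rose in 6 of 33 (median -1.28), 11 of 16 paternally and 11 of 17 maternally expressed genes. Peg10, a retrotransposon-derived gene, was among those that rose, from 197, 222 and 131 CPM to 2010, 1710 and 981 CPM (3.09 ± 0.34, edgeR adjusted p = 3.86e-06), with the lowest level in Tet2-WT replicate 250. Against pMXs 2 were higher and 5 lower. Of 26 genes of the cytosine methylation machinery 16 rose and 4 fell (median 0.64), with the cytidine deaminase gene Apobec1 at 3.50 and Parp1 of base excision repair at 1.88. Of the Tet relatives, a change from untreated did not pass for Tet1 (-0.47 ± 0.33, adjusted p = 0.222), nor for Tet3 (0.31 ± 0.14, adjusted p = 0.0535), nor for the glycosylase gene Tdg (-0.62 ± 0.32, adjusted p = 0.0953). Tet3 passed with a term for the replicate number (0.0152), with one for the set (0.0273) and without Tet2-WT replicate 250 (0.00322). Tdg stood under 1 CPM and has near-identical copies, so its value is uncertain. Of the list, Tet2 itself was higher than with pMXs and the de novo methyltransferase gene Dnmt3a lower (-0.38 ± 0.11, adjusted p = 0.0309). Dnmt3a did not pass without pMXs replicate 2 (0.127) or 250 (0.0817) or Tet2-WT replicate 2 (0.0541) or 250 (0.114). With a term for the set 2 members were higher and 2 lower.

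The remaining marker lists were mixed. Of 21 neural genes 13 rose and 4 fell, with the intermediate filament gene Nes going from 264, 241 and 192 CPM to 949, 829 and 645 CPM (1.80) and Ddc, an enzyme of amine transmitters, from 0.375, 0.554 and 0.876 CPM to 28.8, 25.2 and 23.6 CPM (5.43), while Gap43, a growth cone protein, fell by 5.88. Ddc (1.14) and Nes (0.74) were higher and Gap43 (-1.89) lower than with pMXs, and 3 neural genes differed in each direction. Of 9 endothelial genes 3 rose and 4 fell. In that list 1 was higher and 4 lower than with pMXs, 5 that became 1 without pMXs replicate 100 or 250 or Tet2-WT replicate 2, 2 without Tet2-WT replicate 1, or 3 when Tet2-WT replicate 250 was left out. Of 11 skeletal muscle genes 1 rose and 6 fell, of 12 extraembryonic and germ layer genes 5 rose and 6 fell, and of 9 germline genes 3 rose and 5 fell. For these 3 lists 1, 3 and 1 differed from pMXs. The muscle count was 2 without pMXs replicate 2, and 3 without Tet2-WT replicate 250 or with a term for the replicate number or the set. Leaving out pMXs replicate 100 or 250 or Tet2-WT replicate 1 took the germ layer count to 0, leaving out Tet2-WT replicate 2 to 1, and leaving out Tet2-WT replicate 250 to 5. The germline count was 0 without pMXs replicate 2 or 100 or Tet2-WT replicate 2, and 2 with a term for the set.

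The CpG content of transcript starts was read across all genes, as Tet2 acts on methylated CpG. The measure was the number of CG dinucleotides in the first 300 bases of each annotated transcript (GENCODE vM21 sequences), averaged per gene, and 98.7% of genes tested had a value. The median was 18.5 over all genes tested, and 5.94% had at most 5. Genes at least 2-fold higher with Tet2-WT than untreated had a median of 17.7 and those at least 2-fold lower one of 15.7. Genes at least 2-fold higher with Tet2-WT than with pMXs had a median of 9 (quartiles 5.62 and 15.4, 244 genes) and 21.7% had at most 5, while those at least 2-fold lower had a median of 14 (283 genes) and 10.2%. For the day 5 change with pMXs the medians were 18 for the higher and 15 for the lower genes. Many genes of the first set were low, and among genes with at least 5 CPM in a group the medians were 10.5 (111 genes) and 14 (213 genes), against 19.7 over all such genes. Median GC content was 56.5% for the genes higher and 59.7% for those lower than with pMXs, against 60% over all genes. No test was made of these distributions, and what part GC content and low levels have in them was not tested.

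**Figure D5:**
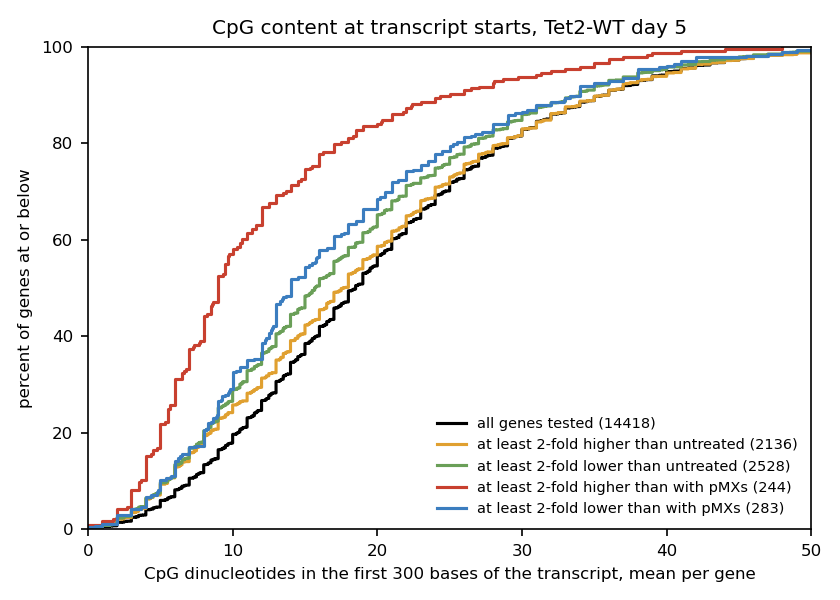
Cumulative share of genes (vertical axis, percent) by the number of CpG dinucleotides in the first 300 bases of their transcripts (horizontal axis, mean per gene), for all genes tested and for genes changed by at least 2-fold with Tet2-WT at day 5 against untreated or pMXs. The curve of the 244 genes higher than with pMXs (red) lies to the left of the others, with a median of 9 against 18.5 for all genes tested.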

How the data were processed

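Libraries were made with a stranded mRNA kit, per the labels' protocols. The deposited values are raw read counts, 1 row per gene. According to the submitters' processing notes the authors aligned reads to mm9 with STAR 2.6.1a and used featureCounts 1.6.2. Other tools listed there are bedtools 2.27.1, DESeq2 1.26.0, SAMtools 1.7 and R 3.6.2, without a stated role. How strand was treated in counting is not given in the sources used here, so overlapping and antisense genes may share reads. The table holds 24495 genes in 13 libraries.

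The fit used edgeR 4.0.16 (R 4.3.3): filterByExpr by group (count minimum 10, total minimum 15, 14607 genes kept), TMM scaling and 1 robust quasi-likelihood fit of 4 group means over all 13 libraries. The 4 Tet2-E libraries (another Tet2 vector) enter only through the shared estimate of spread. Adjusted p-values are Benjamini-Hochberg over all genes tested, called under 0.05, and "rose", "fell", "higher" and "lower" are used of called genes. The standard error is the absolute log2 fold change over the square root of the F value, and CPM uses TMM-scaled library sizes. The biological coefficient of variation was 0.102. Replicates differed by more than counting error (chi-square per degree of freedom 6.5 to 42.2), so no pair was counted as 1 sample. After group means were removed, same-number libraries of the day 5 groups correlated at 0.121 to 0.339 (8 pairs, Tet2-E included), as did libraries of other numbers in the same set (0.0784 to 0.363), sets being replicates 1 and 2 against 100 and 250, and those of different sets at -0.42 to -0.0497. With untreated libraries the same-number values were -0.0425 to 0.171. By this measure day 5 libraries went together by set, and a shared number added nothing visible to a shared set. For untreated libraries with all day 5 groups, same-set values (-0.233 to 0.189) overlapped different-set values (-0.144 to 0.185). This overlap came from pairs with Tet2-E. With pMXs and Tet2-WT alone, untreated libraries correlated at 0.0263 to 0.189 within a set, same numbers included, and at -0.144 to 0.00303 across sets. What the numbers and sets stand for is left unsaid by the labels. The main fit holds no term for the set. Fits with the number as a block or a term for the set are given where they change a call.

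Named genes were the Tet and OKSM genes, the 10 rising and 10 falling genes of smallest p (at least 2-fold, at least 5 CPM in 1 group, no overlap of libraries), up to 6 a direction in each class against pMXs, and from each of 27 lists up to 3 members rising and 3 falling most and 2 a direction of smallest p against pMXs. Further list members that the text describes were chosen after their values were seen. The members, the 27 lists (777 genes, 677 tested) and the rules were chosen with earlier results of these data known. No set test was made.

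Alternatives were RLE scaling, DESeq2 1.42.0, 2 other filters, terms for replicate number and set, a fit of the 2 groups alone and leaving out each library. On simulated data at the real depth the fit recovered 64.2% of 67 genes changed by 1.5-fold, 76.1% of 67 changed by 2-fold and 97% of 66 changed by 4-fold in the comparison of Tet2-WT with untreated, and called 0.0625% of 14407 unchanged genes. The same shares were recovered for Tet2-WT against pMXs, with 0.0208% false calls. Untreated and pMXs had the same means in the simulation, so close shares in both comparisons were built in. It held neither the broad change from untreated nor the correlation of libraries by set. Its rates therefore need not hold for the real data. Promoter sequences are RefSeq windows on GRCm38.p6, taken by gene symbol. No coordinates come from the count table.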

Additional observations from a re-analysis of the deposited data

Results flagged for a closer look

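The difference between the day 5 change with Tet2-WT and that with pMXs was itself tested and passed at 1830 genes. Among these, 20 genes had called changes from untreated in opposite directions with Tet2-WT and pMXs, 17 of them with Tet2-WT above. Of the 20, 6 also differed by at least 2-fold, reached 5 CPM in a day 5 group and had no overlap between Tet2-WT and pMXs libraries. The log2 difference between the changes was 1.40 for Parvb (edgeR adjusted p = 9.47e-05), 1.46 for Xaf1 (0.000209), 1.53 for Neu3 (0.000278), 1.15 for Actg2 (0.000345), 1.21 for Col9a3 (0.00272) and 2.27 for Nefm (0.00354). Each of these 6 differences kept its call without any 1 library. The opposite directions against untreated rest on rises of less than 2-fold with Tet2-WT, several of which did not pass when a library was left out. Another of the 20, Col17a1, stayed under 5 CPM and differed by 3.14 (edgeR adjusted p = 4.56e-06).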

How the results depend on the processing

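The number of genes changed with Tet2-WT against untreated (10617) stayed within 1.5 times under every alternative: 10619 with RLE scaling, 10513 by DESeq2, 10998 with no filter, 10043 with at least 1 CPM in 3 libraries, 10905 with a term for the set of replicate numbers, 10099 in a fit of the 2 groups and 9968 to 10444 without single libraries. Against pMXs (1830) the counts were 1820, 2100, 1697, 1776, 2060 and 2270 in that order, and 1097 to 1821 without single libraries. The count was 1670 without pMXs replicate 2 and 1821 without Tet2-WT replicate 250, each the only library of its set in its group. Leaving out any other library of these groups gave 1097 to 1175. The cause of the lower counts was not tested. With the replicate block 10739 genes changed against untreated and 1904 against pMXs. The block changed the calls of Xaf1 and Tet3 against untreated, Cdh1 against pMXs and Kcnk2 between pMXs and untreated, and the counts of the muscle and Hox lists against pMXs, by over 1.5 times, and of no other gene or list reported. Of the values against untreated for single genes, 3 turned sign, none of them called: Tlr4 ran from -0.159 to 0.108 and Aldh1a2 from -0.31 to 0.175 without single libraries. Over all genes and settings compared, 1644 values against untreated kept direction and call, 5 gained a call and 24 lost one, and against pMXs 1262 kept both, 4 gained and 8 lost a call. The sets of replicate numbers are 2 to 1 in Tet2-WT and untreated and 1 to 2 in pMXs, so this set is partly confounded with the vector. The check of promoter windows was void, since 68.7% and 69.3% of the genes higher and lower than with pMXs by at least 2-fold had one. The transcript-start measure in its place was chosen after seeing the data.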
